A study of Mus musculus with 8 samples.

Results

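UDP-glucuronosyltransferases (Ugt genes) and sulfotransferases (Sult genes) encode the main conjugating enzymes of the liver. Of the 55450 gene rows in the tables of each liver, 42 were chosen by symbol, namely every Ugt1, Ugt2 or Ugt3 gene and every numbered Sult1 to Sult7 gene, 21 of each family. The rule reads symbols alone. RNA was measured in 8 mouse livers by sequencing of polyadenylated RNA. The 4 control livers came from mice with floxed Cebpa alleles and no Cre (Cre-), and the 4 knockout livers from mice in which Cre (Cre+) removed Cebpa from hepatocytes. Its product, C/EBP alpha, is a regulator of the differentiated hepatocyte. Body weights were matched and the mice were 10 weeks old. Both genotypes were fed liquid control food over 5 days, followed by 4 weeks on liquid food with 5% ethanol by volume, so every value below is from an ethanol-fed liver. The promoter that drives Cre is not given in the sources used here, and a Cre-carrying group without floxed alleles was not analysed here. The comparison asks which conjugation genes differ between the genotypes under ethanol.

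Glucuronidation and sulfonation make bilirubin, bile acids, steroids, phenols and drugs more soluble in water, for export into bile or urine. Ugt enzymes sit in the endoplasmic reticulum and take glucuronic acid from UDP-glucuronic acid. Sult enzymes of the cytosol take sulfonate from the cofactor PAPS. The Ugt1a genes form 1 complex locus, in which each gene has its own promoter and first exon and all are spliced to the same downstream exons. The first exon encodes the part of the enzyme that binds the substrate, so the choice of first exon sets which substrate is conjugated.

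The libraries held between 21048350 and 28148744 expected counts, and the 42 genes took 0.483% to 0.624% of them. Cebpa was at 263.6 to 320.3 CPM (counts scaled to library size) in control livers and at 5.44 to 9.26 CPM in knockout livers (log2 fold change -5.38, SE 0.18, edgeR adjusted p = 4.78e-07). Hepatocyte markers were abundant in every liver, with 8 genes, mostly Alb, summing to 89660 to 125100 CPM in the control livers, against 109400 to 122400 CPM in the knockout livers. Of these 8 genes edgeR called 0, 3 reached an unadjusted p below 0.05 and 6 had a fold change below 0. DESeq2 called 1, Cps1, a urea cycle enzyme at 2874 ± 405 CPM in control and 1870.0 ± 307 CPM in knockout livers (SD, 4 livers each; edgeR adjusted p = 0.0763, DESeq2 adjusted p = 0.00228). Over all genes tested, edgeR called 2.06%, and 18.5% had an unadjusted p below 0.05. DESeq2 called 5.54% of all genes to which it gave an adjusted p. Cholangiocyte markers were higher in knockouts. Of 9 such genes 6 were tested, of which Krt19, Epcam and Spp1 rose by edgeR's test, and none of the 9 was at 0 in all livers. Their sum, mostly Spp1, ran from 34.5 to 73.4 CPM in the control livers and from 128.7 to 373.5 CPM in the knockout livers. Spp1 was at 35.05 ± 16.8 CPM in control and 210.8 ± 102.9 CPM in knockout livers (SD, 4 livers each). Krt19 was low, at 0.445 ± 0.267 and 1.45 ± 0.184 CPM, as was Epcam, at 0.729 ± 0.227 and 2.045 ± 0.286 CPM (same order, SD, 4 livers each). When each liver was left out in turn, the 3 calls held 1, 4 and 2 times in 8, with edgeR adjusted p up to 0.119, 0.0705 and 0.0892. Of 8 macrophage, 8 stellate and 6 endothelial cell markers edgeR called 0, with 3, 3 and 2 at an unadjusted p below 0.05, and every fold change was above 0. DESeq2 called 1 macrophage marker, 0 endothelial markers and 0 of the 6 stellate markers to which it gave an adjusted p. It gave none to Col1a1 and Col3a1, which had the highest stellate log2 fold changes, 1.89 and 1.635. Knockout 2 was highest for both, at 52.3 and 129.2 CPM. The other knockouts were at 5.80 to 8.80 CPM of Col1a1 and 24.45 to 32.5 CPM of Col3a1. Summed macrophage markers ran from 133.6 to 287 CPM in control livers and from 220.3 to 367 CPM in knockout livers. In the same order, the sums were 119 to 231 and 204 to 418 CPM for stellate cells. For endothelial cells they were 108 to 134.5 and 127.5 to 172 CPM. Of 5 intestine and kidney markers 1, Fabp2, was tested and not called by either tool, with Cdx2 and Umod at 0. Their sum, mostly Fabp2, ran from 49.4 to 105.9 CPM in control livers and from 66.3 to 88.2 CPM in knockout livers. The part of other cell types in the results below was not tested. In whole liver, fewer cells of a type and less RNA per cell cannot be told apart. The labels do not state that each library is from a separate mouse, so p-values measure only the spread between these samples, which may be technical.

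The Ugt1a locus is shown first because its members moved in opposite directions. All 9 genes lie on the plus strand of chromosome 1 of GRCm38 (mm10), they join 9 different first exons to the same 4 downstream exons, and between 39.4% and 49.7% of the exonic bases of each gene are its own. The first 60 coding bases of Ugt1a9 (chr1:88070830-88070889) and Ugt1a1 (chr1:88212002-88212061) are given from the GENCODE transcripts, with capitals where the pair differ.
Ugt1a9: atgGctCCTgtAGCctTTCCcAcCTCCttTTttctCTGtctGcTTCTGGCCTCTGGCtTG
Ugt1a1: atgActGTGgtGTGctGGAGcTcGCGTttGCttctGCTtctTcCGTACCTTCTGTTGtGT
The pair differed at 38 of these 60 bases, and the coding parts of their first exons were 55.4% identical in a global alignment, so reads of the first exon tell them apart.

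Ugt1a6a and Ugt1a6b are near copies, with 26 differences over 858 coding bases of the first exon (97.0% identical). The 60 bases with the most differences are shown, coding positions 296 to 355 counted from the start codon, for Ugt1a6a (chr1:88138769-88138828) and Ugt1a6b (chr1:88107237-88107296), with capitals where they differ.
Ugt1a6a: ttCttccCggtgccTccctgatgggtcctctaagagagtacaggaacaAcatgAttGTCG
Ugt1a6b: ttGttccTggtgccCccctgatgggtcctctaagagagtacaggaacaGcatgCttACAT
Even here 51 of 60 bases were the same, so the division of reads between these 2 genes is uncertain. Ugt1a9 is closest to Ugt1a10 (91.2% identical over the first exon), which was near silent at 2.65 TPM (a level scaled to gene length and library) over the 8 livers. Reads from the shared exons were divided among the 9 genes by the authors' estimation. The sum of counts over the locus, and so of CPM, does not depend on that division. A sum in TPM can depend on it, since gene lengths differ (2190 exonic bases for Ugt1a9, 4312 for Ugt1a6a). The antisense gene Gm20528 overlaps exons of the locus.

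Of the 42 genes, 24 passed the filter on low counts, and edgeR called 3 of these at an adjusted p below 0.05, or 12.5%, beside 2.06% of all 13303 genes tested. Ugt1a9 rose, which makes 1 higher beside 0.849% of all genes, and Ugt1a6b and Sult1d1 fell, which makes 2 lower beside 1.21%. With replicate number as a block the same 3 were called, beside 1.32% of all genes. A further 8 had an unadjusted p below 0.05, which makes 11 of 24 at that level beside 18.5% of all genes tested. The CPM of the groups did not overlap for 9 of the 24, of which 8 were lower in knockouts and 1 higher, beside 11.5% of all genes tested. The median log2 fold change of the 24 was -0.05, and that of all genes tested was 0.00. DESeq2 called 8 of the 25 members to which it gave an adjusted p, 1 higher and 7 lower, beside 5.54% of all genes to which it gave one. Besides the 3 genes called by edgeR these were Ugt3a2, Ugt1a6a, Sult2a8, Ugt1a1 and Ugt2b5, with DESeq2 adjusted p of 0.00238, 0.00487, 0.00645, 0.0121 and 0.0271. Below, the test is that of edgeR unless DESeq2 is named.

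**Figure D1:**
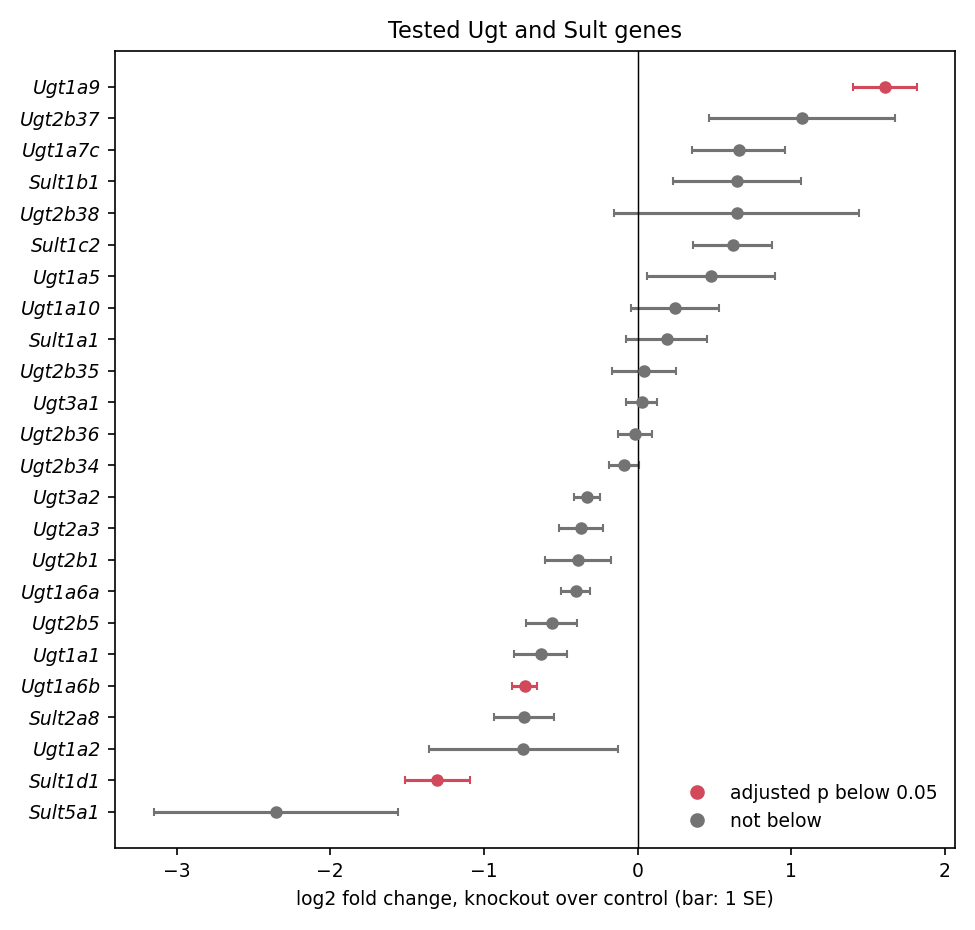
Log2 fold change of knockout over control for the 24 tested Ugt and Sult genes, with bars of 1 SE and red points at an edgeR adjusted p below 0.05. Ugt1a9 (1.61) stands alone on the right, with Ugt1a6b (-0.73) and Sult1d1 (-1.30) as the red points on the left, and Sult5a1 has the lowest value with a wide bar.

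Ugt1a9, whose human counterpart conjugates bulky phenols such as propofol, rose 3.05-fold. Its level was 119, 240.1, 158 and 188 CPM in control livers 1 to 4, and 591, 470.3, 629 and 458 CPM in knockout livers 1 to 4. Every knockout was above every control by a wide margin, the nearest being control 2 and knockout 4. The means were 176 ± 51.2 and 537 ± 85.9 CPM (SD, n = 4), with a log2 fold change of 1.61 (SE 0.21, edgeR adjusted p = 0.00675). The call held in all 8 fits that left out a liver, with a log2 fold change of 1.45 to 1.79. The gene (ENSMUSG00000090175.1) spans chr1:88070800-88218997.

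Ugt1a6b, a copy of the gene for small planar phenols, fell 1.66-fold. Its level was 154, 130.3, 143.5 and 145 CPM in control livers 1 to 4, and 88.0, 88.7, 78.4 and 89.45 CPM in knockout livers 1 to 4. The groups lay far apart, and both were narrow. On the log2 scale the fold change came to -0.73 (SE 0.08, edgeR adjusted p = 0.00229), and the call held in all 8 fits that left out a liver. Its near copy Ugt1a6a was at 154, 139.8, 155, 151 and 131, 109, 98.2, 116 CPM in the same order, lower in every knockout than in any control but short of the threshold (log2 fold change -0.40, SE 0.10, edgeR adjusted p = 0.0638). The sum of the pair, chosen after the values were seen, avoids the uncertain division of their reads. It was 293 ± 16.3 CPM in the control livers, against 199.6 ± 17.6 CPM in the knockout livers (SD, n = 4), again without overlap.

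Ugt1a1, which encodes the bilirubin-conjugating enzyme, was the most abundant Ugt1a gene of control livers. Its level was 716.5, 728, 631 and 695 CPM in control livers 1 to 4, and 364, 454, 621 and 351 CPM in knockout livers 1 to 4. No knockout reached a control, but knockout 3 came within 10 CPM of control 3, and the difference missed the threshold (log2 fold change -0.63, SE 0.17, edgeR adjusted p = 0.0997). Without knockout 3 the log2 fold change was -0.84 (edgeR adjusted p = 0.0226). That was the 1 call in 8 fits that left out a liver, with edgeR adjusted p up to 0.219 in the others. Ugt1a5 varied within both groups, from 50.3 to 166 CPM in the control livers and from 104 to 185 CPM in the knockout livers (edgeR adjusted p = 0.577). Ugt1a7c, Ugt1a10 and Ugt1a2 stayed below 9 CPM in every liver and did not pass the test.

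The summed level of the locus overlapped between genotypes, while the shares of Ugt1a9, Ugt1a1, Ugt1a6a and Ugt1a6b in it did not. The shares of the other 5 genes overlapped. The 9 genes summed to 706, 809.8, 745 and 811 TPM in control livers 1 to 4, and to 889, 869.0, 978.5 and 755 TPM in knockouts 1 to 4, ranges that overlap. In CPM the sums were 1261 ± 77.2 and 1321 ± 176.5 (SD, n = 4). The sum fitted as 1 row of the whole table had a log2 fold change of 0.07 with an SE of 0.12. Ugt1a9 made up 10.1%, 18.9%, 13.5% and 14.2% of the summed TPM in control livers 1 to 4, and 43.7%, 38.3%, 41.45% and 41.2% in knockouts 1 to 4. Ugt1a1 made up 59.96%, 56.3%, 53.0% and 51.6% in controls and 26.5%, 36.4%, 40.2% and 31.1% in knockouts. Ugt1a1 was thus ahead of Ugt1a9 in all 4 controls, and Ugt1a9 was ahead of Ugt1a1 in all 4 knockouts. The lead of Ugt1a9 was narrow in knockout 2 (38.3% against 36.4%) and in knockout 3 (41.45% against 40.2%). The shares of one locus are tied to each other, and no test was run on them.

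**Figure D2:**
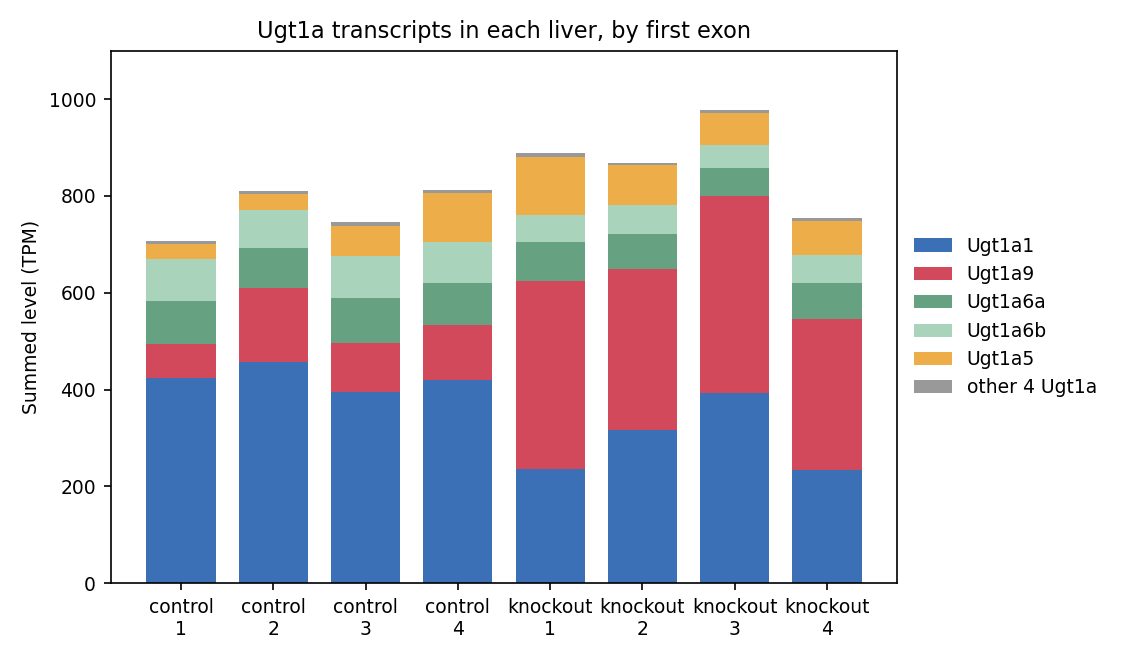
Level in TPM of the Ugt1a genes in each of the 8 livers, stacked by gene, with the other 4 genes together in grey. The heights overlap between genotypes (706 to 811 TPM in controls, 755 to 978.5 TPM in knockouts), while the red segment of Ugt1a9 is larger, and the blue segment of Ugt1a1 smaller, in each knockout than in any control.

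Sult1d1, which in mice sulfonates catecholamines and has no functional counterpart in humans, fell 2.47-fold. Its level was 175, 115.5, 228.5 and 187 CPM in control livers 1 to 4, and 82.9, 64.8, 83.3 and 55.5 CPM in knockout livers 1 to 4. The highest knockout was below the lowest control, control 2. The means were 176.5 ± 46.6 and 71.6 ± 13.8 CPM (SD, n = 4), with a log2 fold change of -1.30 (SE 0.21, edgeR adjusted p = 0.0176). The call was lost without control 4 (log2 fold change -1.28, edgeR adjusted p = 0.0519) and without knockout 2 (log2 fold change -1.26, edgeR adjusted p = 0.0655). The gene (ENSMUSG00000029273.10) lies on the minus strand at chr5:87554645-87569027 and shares exonic bases with no other annotated gene. Of the summed Sult1 TPM, Sult1d1 made up 29.95% to 38.5% in the control livers and 12.7% to 16.6% in the knockout livers.

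**Figure D3:**
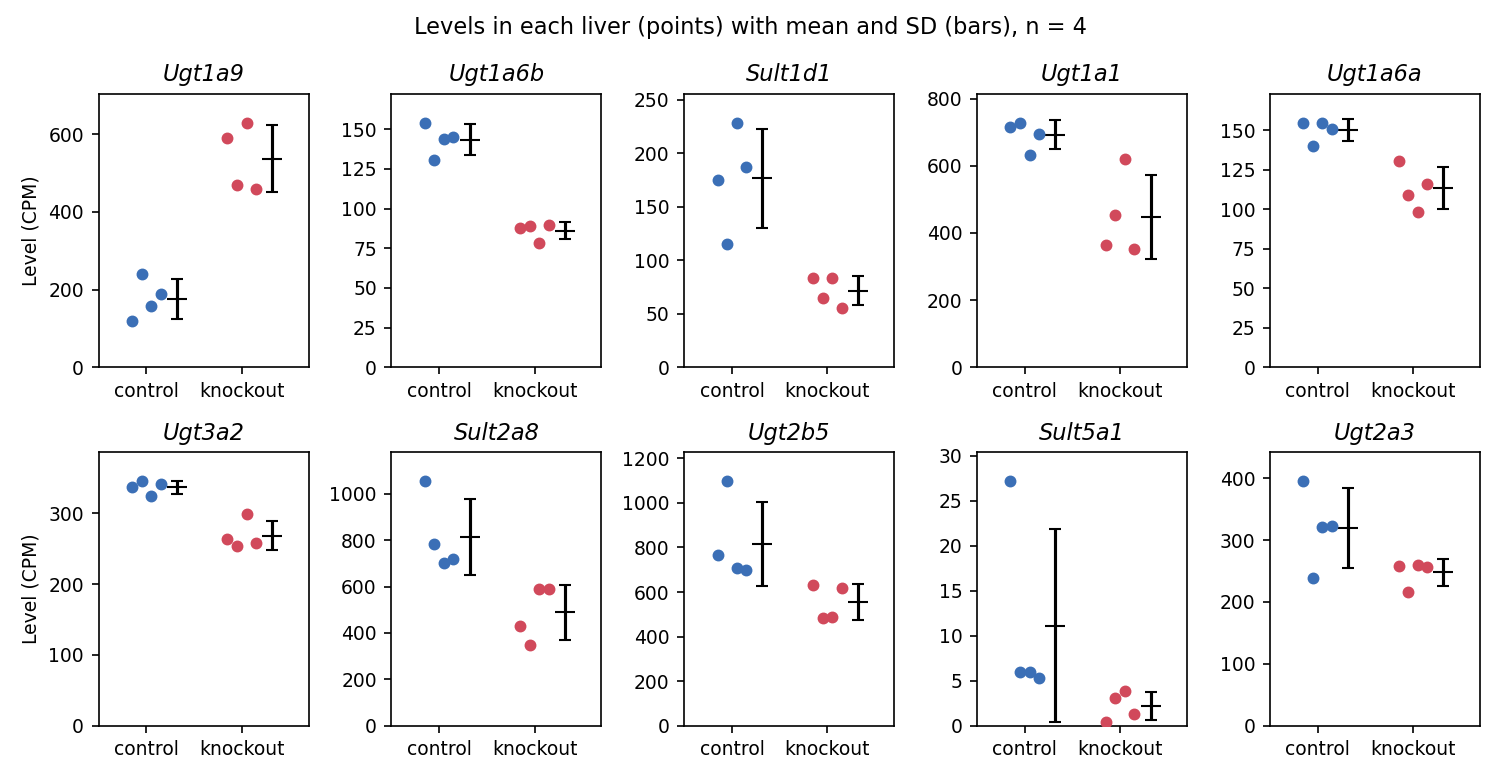
Level in CPM of 10 genes in each liver, with 1 point per liver and the mean ± SD of each group of 4 beside the points, on axes that start at 0. The genes are the 3 called by edgeR (Ugt1a9, Ugt1a6b, Sult1d1) and the 7 with the next smallest p, of which Ugt2a3 alone has overlapping groups.

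The other Sult1 genes did not pass the test. Sult1a1, the main phenol sulfotransferase, was at 172 ± 54.3 CPM in the control livers, against 196 ± 53.3 CPM in the knockout livers (SD, 4 livers each; edgeR adjusted p = 0.736). The Sgf29 gene overlaps its exons on the opposite strand. Sult1b1, which acts on phenols and thyroid hormones, was at 42.2, 9.46, 31.6 and 26.9 CPM in the control livers, against 45.8, 38.7, 58.8 and 29.4 CPM in the knockout livers, with control 2 lowest (edgeR adjusted p = 0.451). Sult1c2 was at 4.98 ± 1.62 and 7.68 ± 1.93 CPM (SD, 4 livers each; edgeR adjusted p = 0.235). Per gene length, the summed Sult1 level was 342 ± 95.8 TPM in controls and 338 ± 71.9 TPM in knockouts (SD, n = 4). In CPM the sums were 381 ± 105 and 319 ± 77.1 (SD, n = 4), and the groups overlapped on both scales.

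Sult2a8, a bile acid sulfotransferase of mouse liver, was the most abundant of the 42 genes at 546.5 TPM over the 8 livers. Its level was 1054, 783, 703 and 717 CPM in control livers 1 to 4, and 429, 349, 589 and 588.5 CPM in knockout livers 1 to 4. Every knockout was below every control, yet the difference missed the threshold (log2 fold change -0.74, SE 0.20, edgeR adjusted p = 0.0921). Sult5a1, a little-studied member, was at 27.2, 5.92, 5.98 and 5.29 CPM in the control livers, against 0.404, 3.09, 3.88 and 1.33 CPM in the knockout livers. The groups did not overlap (log2 fold change -2.35, SE 0.80, edgeR adjusted p = 0.18). Among the controls, replicate 1 stood far above the others, and leaving it out gave a log2 fold change of -1.41.

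Most other Sult genes were silent or nearly so. Of the 18 genes below the filter on low counts, 9 had no count in any liver, and a fit without the filter tested the other 9 and called none of them. The genes with no count were Sult1c1, Sult2a3, Sult2a4, Sult2a5, Sult2a6, Sult3a2, Sult6b1, Sult6b2 and Ugt2a1. A count of 0 in a library allows up to 3 counts, for counting error only. Sult2a1, Sult2a2, Sult2b1, Sult3a1, Sult4a1 and Ugt2a2 had 1 or 2 counts over the 8 livers. Sult2a1 and Sult3a1 are known as genes of female mouse liver. Sult2a7 had 29 counts summed over control livers and 4 over knockout livers, which is a ratio of 7.99 with a 95% exact counting interval of 2.81 to 31.3. Sult1e1, the oestrogen sulfotransferase, had 16 and 5 counts, a ratio of 3.53 (95% interval 1.24 to 12.3). Ugt1a8 had 3 and 7 estimated counts. These intervals cover counting error and not the spread between livers.

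The Ugt2 genes, whose products conjugate steroids, bile acids and drugs, did not pass edgeR's test in any case, and DESeq2 called 1, Ugt2b5. They include the most abundant Ugt genes per gene length, Ugt2b5 at 529 TPM and Ugt2b36 at 511 TPM over the 8 livers. Ugt2b5 was at 766, 1097, 707.5 and 697.5 CPM in control livers 1 to 4, and 632, 482, 490.1 and 617 CPM in knockout livers 1 to 4, without overlap (log2 fold change -0.56, SE 0.17, edgeR adjusted p = 0.123, DESeq2 adjusted p = 0.0271). Ugt2b36 was at 609 ± 66.2 and 601.5 ± 48.5 CPM, and Ugt2b34 at 626.5 ± 54.6 and 589 ± 30.2 CPM (SD, 4 livers each; edgeR adjusted p = 0.95 and 0.655). Ugt2b1 was at 544 ± 127 and 416 ± 118 CPM, and Ugt2b35 at 167 ± 47.6 and 172 ± 32.7 CPM (SD, 4 livers each; edgeR adjusted p = 0.371 and 0.935). Ugt2a3 was at 395, 238, 322 and 322 CPM in the control livers, against 258, 216, 260.0 and 256 CPM in the knockout livers, with control 2 inside the knockout range (edgeR adjusted p = 0.212). The low members Ugt2b37 and Ugt2b38 were highest in knockout 4, at 7.03 and 38.4 CPM, where the other knockouts were at 1.01 to 2.53 and 5.21 to 8.15 CPM. Without knockout 4 the log2 fold change of Ugt2b38 was -0.50, against 0.65 with all livers. The summed Ugt2b level was 1733 ± 247 TPM in controls and 1573 ± 127 TPM in knockouts (SD, n = 4).

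The Ugt2 genes and 3 of the Sult1 genes share a cluster on chromosome 5. Over 701.8 kb (chr5:86889767-87591594) it holds 13 of the 42 genes and 1 other coding gene model, Gm43638, which overlaps Ugt2a1 and Ugt2a2. Of the 10 members tested there, Sult1d1 alone passed edgeR's test, and DESeq2 also called Ugt2b5. Its neighbours on either side were Sult1b1, with a log2 fold change of 0.65 (SE 0.42), and Sult1e1, which was below the filter on low counts.

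**Figure D4:**
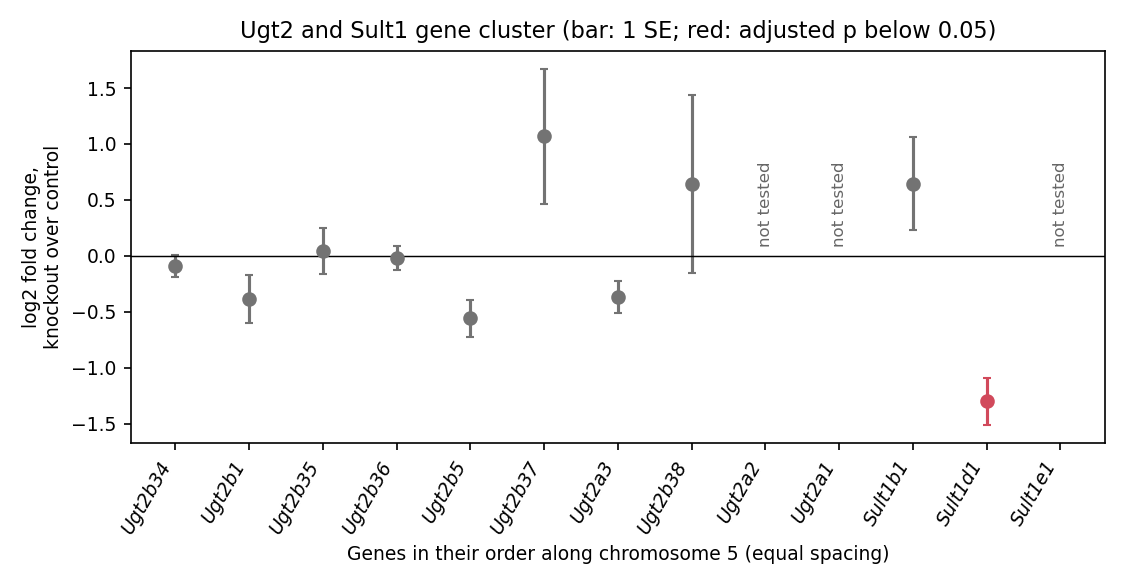
Log2 fold change of knockout over control, with bars of 1 SE, for the 13 Ugt2 and Sult1 genes of the cluster in their order along chromosome 5 at equal spacing, with genes below the filter on low counts marked as not tested. Sult1d1 (-1.30) is the red point, while its tested neighbour Sult1b1 lies above 0 with an SE of 0.42.

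The Ugt3a genes, whose human products use other sugars than glucuronic acid, were narrow within groups. Ugt3a2 was at 338, 345, 324 and 341.5 CPM in control livers 1 to 4, and 264, 253.5, 299 and 259 CPM in knockout livers 1 to 4, all lower (log2 fold change -0.33, SE 0.09, edgeR adjusted p = 0.0867). The groups did not overlap, and the difference missed edgeR's threshold and passed that of DESeq2 (adjusted p = 0.00238). Ugt3a1 was at 103 ± 12.2 and 105 ± 9.32 CPM (SD, 4 livers each; edgeR adjusted p = 0.922).

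Promoter windows from RefSeq (GRCm38.p6), 250 bases before to 50 after a gene's start, matched 36 of the 42 genes, 22 of them tested. A C/EBP-type motif, TTGCNNAA on either strand, was found in 9 of their 39 windows (23.1%) and in 10.8% of all 32851 windows. Among the 22 tested genes with a window 6 held it, namely Sult1c2, Sult2a8 (not in every window), Ugt2a3, Ugt2b1, Ugt2b36 and Ugt2b5. Of the genes called by edgeR or DESeq2, Sult2a8 and Ugt2b5 thus held it, both called by DESeq2 alone. Ugt1a9, Ugt1a1, Ugt1a6a and Sult1d1 did not. Ugt1a6b and Ugt3a2 had no window. The excess over all windows was not particular to this motif. Another motif, GTTAAT on either strand, was chosen after the promoter sequences were read. It was found in 13 of the 39 windows (33.3%) and in 7.1% of all windows. A match describes letters and shows no binding, and no match says only that these letters are not in the window.

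No gene that supplies cofactors, moves conjugates or regulates these genes passed edgeR's test, in lists chosen with earlier results of these data known. The counts below stand beside 18.5% of all genes tested at an unadjusted p below 0.05. DESeq2 called 5.54% of all genes to which it gave an adjusted p. Of 5 tested genes of UDP-glucuronic acid supply and its partners, 0 reached an unadjusted p below 0.05 while DESeq2 called 0, with a median log2 fold change of -0.17. Slc35d1, which carries UDP-glucuronic acid into the endoplasmic reticulum, was at 74.3 ± 7.67 and 66.1 ± 5.35 CPM, and Gusb, which removes glucuronic acid, at 29.9 ± 1.51 and 27.4 ± 3.39 CPM (SD, 4 livers each; edgeR adjusted p = 0.364 and 0.533). Of 9 tested genes of sulfate and PAPS supply, 1 reached an unadjusted p below 0.05 while DESeq2 called 0, with a median of 0.06. Papss2, the main PAPS synthase of liver, was at 222 ± 25.9 and 289 ± 92.4 CPM, and Suox, which makes sulfate from sulfite, at 106 ± 14.4 and 135 ± 19.1 CPM (SD, 4 livers each; edgeR adjusted p = 0.37 and 0.178).

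Of 10 transporters of conjugates and organic anions, edgeR called 0, and the median log2 fold change was 0.10. An unadjusted p below 0.05 was reached by 5, beside 18.5% of all genes tested. DESeq2 called 4, 2 of them higher, beside 5.54% of all genes to which it gave an adjusted p. Slco1a1, an uptake carrier of the sinusoidal membrane, was at 495 ± 71.6 and 185 ± 94.6 CPM (SD, n = 4, log2 fold change -1.42, edgeR adjusted p = 0.0784). Without knockout 4 its log2 fold change was -1.79 (edgeR adjusted p = 0.0142). No other fit that left out a liver called it, and edgeR adjusted p was up to 0.158. Abcg2, an exporter of sulfate conjugates into bile, was at 135 ± 20.1 and 180.5 ± 11.2 CPM (SD, 4 livers each; edgeR adjusted p = 0.0933). Of 17 tested genes on the list of regulators, 2 had an unadjusted p below 0.05, DESeq2 called 2, and the median was -0.14. They were Por and Bcl6. Por, an enzyme that passes electrons to cytochromes P450 rather than a regulator, was at 843 ± 120.5 and 565 ± 149.6 CPM (SD, n = 4, edgeR adjusted p = 0.139). The repressor Bcl6 was at 7.05 ± 1.25 and 32.9 ± 33.3 CPM (SD, n = 4, edgeR adjusted p = 0.16). Knockout 1 had 81.5 CPM of Bcl6, above the other knockouts.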

How the data were processed

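Polyadenylated RNA of 8 livers was sequenced with a stranded TruSeq kit, per the labels' protocols. Tools named in the submitters' processing notes are RSEM 1.2.22, STAR 2.5.1, Trimmomatic 0.36, Picard 1.84 and DESeq2, with mm10 as the build. Each liver's deposited table holds expected counts, in which RSEM divides shared reads among genes, and the authors' TPM, scaled to gene length and library. No source used here gives the strand setting. All 55450 identifiers and symbols matched GENCODE M21, which gave coordinates.

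After rounding, expected counts went into edgeR 4.0.16 under R 4.3.3 (filterByExpr, minimum count 10, minimum total 15, TMM factors, robust quasi-likelihood test, two-sided, Benjamini-Hochberg adjustment over 13303 genes). The SE is the log2 fold change divided by the root of the F statistic. CPM are on TMM-scaled library sizes. Alternatives used limma 3.58.1 and DESeq2 1.42.0. The fit was tested on simulated data. First exons were aligned with Biopython 1.88 and figures drawn with matplotlib 3.10.9. The joint series table was checked against the liver tables. No 2 livers of a group agreed within sampling noise.

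Members and lists were chosen with earlier results of these data known. Values in every liver are given for called genes and for those with the next smallest p, to 10 in all. From each list the 2 genes with the smallest p are named. Other names were chosen after their values were seen.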

Additional observations from a re-analysis of the deposited data

Results flagged for a closer look

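Of 64 groups of 4 livers examined (24 genes and 8 summed levels in each genotype), 7 held 1 liver set far apart from the other 3, where chance gives about 1 in 20. Control 1 was highest for Sult5a1, at 27.2 CPM beside 5.29 to 5.98 CPM, and lowest for Ugt1a7c, at 1.72 CPM beside 3.83 to 4.21 CPM. Control 2 was highest for Ugt2b37, at 2.81 CPM beside 1.04 to 1.10 CPM. Knockout 4 was highest for Ugt2b38, at 38.4 CPM beside 5.21 to 8.15 CPM. Knockout 3 was lowest for Ugt1a6b, at 78.4 CPM beside 88.0 to 89.45 CPM, in a group that lay below every control. Knockout 2 was lowest for Ugt2a3, at 216 CPM beside 255.9 to 260.0 CPM, which also set apart its summed Ugt2a level of 216.1 CPM.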

How the results depend on the processing

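Ugt1a9, Ugt1a6b and Sult1d1 were called, in the same directions, with RLE factors, library size alone, no filter, 1 CPM in 4 livers, limma-voom, limma-trend on log2(TPM + 1) and log2(TPM + 0.1), no robust estimation and without control 2 and knockout 4 together. With 1 liver left out, 2 to 4 of the Ugt and Sult genes and 108 to 372 of all genes were called, against 3 and 274. DESeq2 called 8 and 837. With the Ugt1a rows summed and the Sult2a rows summed, Ugt1a9 and Ugt1a6b were no longer rows of their own. Of the 15 tested genes left as single rows 1 was called, Sult1d1 (edgeR adjusted p = 0.0179). Without control 2 and knockout 4, 431 genes were called. By a chi-square of counts between 2 livers, pairs with control 2 were at 103 to 159 per degree of freedom. Pairs of the other controls were at 28.1 to 52.1. Pairs with knockout 4 were at 55.3 to 61.9, and pairs of the other knockouts at 36.1 to 42.4. The replicate block called the same 3 genes and 176 of all genes. Same-numbered livers deviated from their group means with correlations of 0.207, 0.009, -0.024 and -0.067. Those of differently numbered livers ran from -0.154 to 0.145. The labels do not say whether the numbers mark pairs, and so few correlations cannot decide it. The split of all called genes was 113 higher and 161 lower, 161 and 115 with library size alone, 151 and 86 on log2(TPM + 1) and 144 and 84 on log2(TPM + 0.1), where the median of all genes was 0.12. In TPM the summed Ugt3a difference was -0.10 (log2; -0.24 in CPM) and that of all Ugt genes -0.053 (-0.16 in CPM). Genes with fold changes near 0 changed sign, and the cause was not tested. Ugt2b34 was at 0.026 on both TPM scales, and Ugt2b36 at 0.048 with library size alone, 0.105 and 0.106 on log2(TPM + 1) and log2(TPM + 0.1), and 0.038 without control 2 and knockout 4, where Ugt3a1 was at -0.011. With 1 liver left out, Ugt2b36 ran from -0.090 to 0.024, Ugt3a1 from -0.050 to 0.074, Ugt2b35 from -0.102 to 0.195, and Sult1a1 from -0.014 to 0.351. Ugt2b38, at 0.65 with all livers, ran from -0.499 without knockout 4, which held 38.4 CPM, to 1.220 without control 2. Genes under about 1 CPM are limited by depth.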
